A study of Mus musculus with 6 samples.

Results

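Very long protein-coding genes were taken as the genes whose longest protein-coding transcript in GENCODE release M21 spans more than 100000 bp of the mouse genome, introns included. Of 17349 genes with values, 12974 had a measured protein-coding transcript and 1588 of those passed this threshold. Their median span was 159.6 kb. They were measured by mNET-seq, which sequences the short RNA held in immunoprecipitated RNA polymerase II, in 6 libraries from C57BL/6 mouse embryonic stem cells kept in medium with LIF, CHIR99021 and PD0325901. The groups were Mettl3 control cells, a first Mettl3 knockout (KO1) and a second (KO2), with 2 libraries each. How the knockouts were made, whether each is 1 clone, and whether the 2 libraries of a group came from separate cultures are not stated in the labels, so the p-values below measure the spread between these libraries, which may be technical. The stated question was how the rate of transcription differs between control and knockout cells.

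Mettl3 is the catalytic subunit of the enzyme that writes N6-methyladenosine (m6A) on nascent RNA. After initiation, RNA polymerase II often pauses a short way into a gene, and the release of paused polymerase into the gene body sets how much of it reaches downstream sequence. A very long gene keeps polymerase on the template for far longer than a short one, most of its length is intron, and many such genes encode large adhesion, signalling, cytoskeletal and neuronal proteins. The value deposited for each transcript is named an escaping index: log2 of the signal downstream relative to the signal at the transcript's start. It is a ratio within 1 transcript, so a low value means little downstream signal for the signal at the start, and it is not an amount of RNA or of polymerase.

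The starts of very long genes were GC-rich, as were those of the other measured coding genes. RefSeq promoter sequence (GRCm38.p6) was matched to 1017 of the 1588 genes by a start within 200 bp of the transcript's own. In the 250 bases before the start, the median observed-to-expected ratio of CpG was 0.783, against 0.780 in 2526 matched genes spanning 30 to 100 kb and 0.373 over all 32817 promoters in the table. The short motifs GGGCGG (the GC box), CCAAT and TATAAA were searched on both strands, and none contains another. The GC box was in 70.5% of the very long genes' promoters, 69.4% of those of 30 to 100 kb genes and 32.7% of all promoters. In the same order, TATAAA was in 4.03%, 4.47% and 12.4%, and CCAAT in 32.6%, 36.4% and 33.8%. Over all 7888 matched coding genes outside the very long group, the median CpG ratio was 0.741. The GC box was in 63.1% of them, TATAAA in 5.79% and CCAAT in 38.9%. The promoters below belong to the long genes that departed most from the group in the results that follow and that had a RefSeq start. The first 3 were lower in both knockouts and the last 3 higher. Each is written 5′ to 3′ on the gene's own strand and ends just before the RefSeq start, with matches to the 3 motifs in capitals.
Cntln, chr4:84884059-84884308, plus strand: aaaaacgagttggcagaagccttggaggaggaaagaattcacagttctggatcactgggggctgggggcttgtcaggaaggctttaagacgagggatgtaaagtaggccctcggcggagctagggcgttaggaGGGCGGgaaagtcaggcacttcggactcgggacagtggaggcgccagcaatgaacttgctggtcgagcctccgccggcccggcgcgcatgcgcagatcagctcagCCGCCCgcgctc
Gria4, chr9:4796235-4796484, minus strand: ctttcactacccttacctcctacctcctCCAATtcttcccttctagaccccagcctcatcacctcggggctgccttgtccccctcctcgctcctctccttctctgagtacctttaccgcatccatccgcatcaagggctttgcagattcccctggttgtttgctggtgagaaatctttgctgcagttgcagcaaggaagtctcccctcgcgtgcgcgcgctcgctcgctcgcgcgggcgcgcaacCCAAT
Map3k20, chr2:72285387-72285636, plus strand: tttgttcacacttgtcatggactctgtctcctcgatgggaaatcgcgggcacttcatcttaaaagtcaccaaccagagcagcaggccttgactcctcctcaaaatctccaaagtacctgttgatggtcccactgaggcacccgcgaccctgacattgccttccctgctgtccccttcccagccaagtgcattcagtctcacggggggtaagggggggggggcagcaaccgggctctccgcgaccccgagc
Invs, chr4:48279510-48279759, plus strand: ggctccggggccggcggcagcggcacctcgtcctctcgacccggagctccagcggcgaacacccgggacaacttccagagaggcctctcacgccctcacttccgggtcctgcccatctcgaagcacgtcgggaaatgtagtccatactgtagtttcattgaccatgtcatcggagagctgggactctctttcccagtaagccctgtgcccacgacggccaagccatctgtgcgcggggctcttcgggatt
Klhl13, chrX:23365083-23365332, minus strand: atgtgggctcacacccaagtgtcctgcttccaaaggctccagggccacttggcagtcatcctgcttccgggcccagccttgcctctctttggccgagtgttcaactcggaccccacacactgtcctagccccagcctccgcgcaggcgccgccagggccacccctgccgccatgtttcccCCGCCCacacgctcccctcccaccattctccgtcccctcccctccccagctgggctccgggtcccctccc
Tenm3, chr8:48674691-48674940, minus strand: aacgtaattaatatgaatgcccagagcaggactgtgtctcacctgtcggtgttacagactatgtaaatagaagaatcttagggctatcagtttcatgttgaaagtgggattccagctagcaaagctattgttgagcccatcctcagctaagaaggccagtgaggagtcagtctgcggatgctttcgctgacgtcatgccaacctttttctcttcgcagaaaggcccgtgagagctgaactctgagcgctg
Cntln held the GC box on each strand and Gria4 held CCAAT at 2 places, while Klhl13 held 1 GC box, on the strand opposite to the gene. The stretches of Map3k20, Invs and Tenm3 held none of these letters. The Invs transcript measured here starts 42 bp downstream of the RefSeq start, and the other 5 start at it. Of the 323 long genes with a lower index in the average of both knockouts (below), 224 had a matched promoter and 73.7% of those held the GC box, against 69.6% of the 793 matched long genes without that call.

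The embryonic stem cell genes Pou5f1, Sox2, Nanog and 7 other pluripotency markers all had values in the table, as did 3 of 10 fibroblast markers (Col1a1, Thy1 and Pdgfrb). The index gives no level, so these listings do not measure how much of either cell type was present. For the same reason the index of Mettl3 itself (2.69 and 2.46 for control, 2.44 and 2.42 for KO1, and 2.104 and 2.30 for KO2) does not check the knockout labels. Read depth is unknown, and no interval from counts can be given. Over the very long genes, the libraries of a group had a Pearson's r of 0.944 (control), 0.954 (KO1) and 0.966 (KO2), across genes, which are not replicates. The libraries pool many cells, so a lower ratio in every cell and a lower ratio in some of them cannot be told apart.

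Very long genes had the highest indices of any span class in all 6 libraries. The median index over the 1588 genes was 6.89 and 6.94 in the control libraries, a downstream signal 118.8 and 122.4 times that at the start. Protein-coding genes of 30 to 100 kb had medians of 5.85 and 5.91 in the same libraries, and those up to 10 kb 2.58 and 2.60. Within the very long genes the control medians were 6.72 and 6.78 for the 1011 genes of 100 to 200 kb, 7.19 and 7.26 for the 487 of 200 to 500 kb, and 7.38 and 7.33 for the 90 over 500 kb. The index flattened with span: its least-squares slope per 10-fold of span was 2.77 ± 0.011 (SD, n = 2) in control over all protein-coding genes and 1.04 ± 0.0072 over the very long ones. A ratio that grew in proportion to span would give a slope of 3.32. Per kilobase of span, the median control value on the log2 scale was 0.20 at 30 to 100 kb, −0.26 at 100 to 200 kb, −0.996 at 200 to 500 kb and −1.98 above 500 kb.

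**Figure D1:**
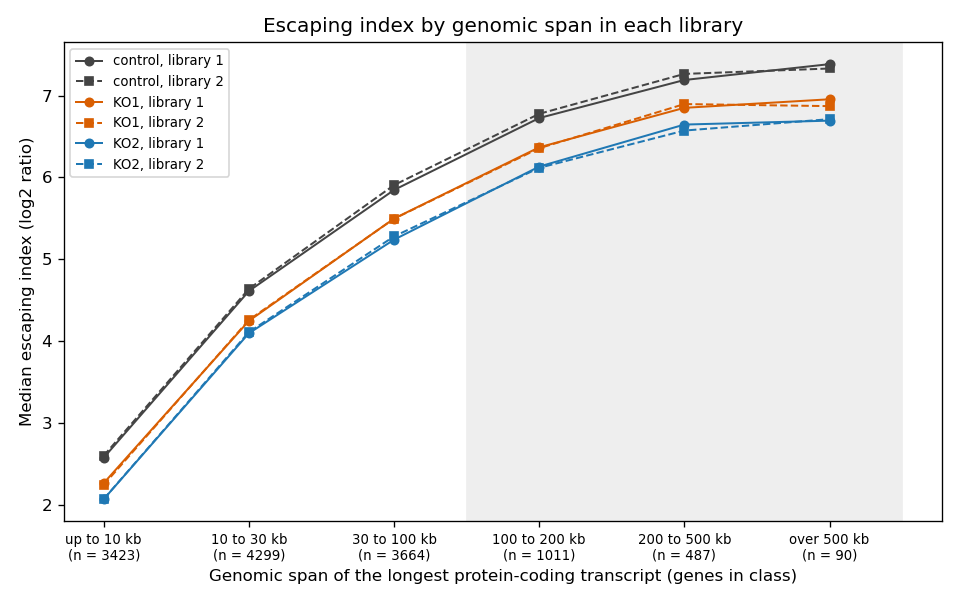
Median escaping index (log2 ratio, y axis) of protein-coding genes in 6 classes of genomic span (x axis), 1 line per library, with the very long genes on the grey ground. All 6 lines rise up to the class of 200 to 500 kb and flatten with span. Above 500 kb the second KO1 library is slightly lower (6.87, against 6.90 at 200 to 500 kb). In every class both control libraries lie above both KO1 libraries and these above both KO2 libraries.

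Very long genes also had more exons and longer first introns. Their median number of exons was 16 against 13 in genes of 30 to 100 kb, the median first intron 31.8 kb against 9.79 kb, and the median spliced length 5.02 kb against 3.92 kb. The sequence GGACT, a common form of the motif at which Mettl3 acts, occurred 1.03 times per kb of spliced transcript, against 1.01. These features had little relation to the change between groups. Over the 1588 genes Spearman's rank correlation with the average knockout change was 0.05 for span, −0.04 for exon number, −0.05 for first intron length and 0.01 for GGACT density, given as descriptions since genes share libraries.

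The median index of very long genes was lower in every knockout library than in either control, and lower in both KO2 libraries than in both KO1 libraries. It was 6.56 and 6.58 for KO1 and 6.32 and 6.28 for KO2, against 6.89 and 6.94 for control. As ratios, the medians were 94.2 and 95.8 in KO1 and 80.1 and 77.7 in KO2. The group means were 6.91 ± 0.030 (control), 6.57 ± 0.016 (KO1) and 6.30 ± 0.032 (KO2) (SD, n = 2 each), so the differences of −0.34 and −0.61 were larger than the spread within groups. An exact two-sided permutation test over libraries gave p = 0.333 for each knockout (2 against 2) and p = 0.133 for the 4 knockout libraries against the 2 controls (difference −0.48), the smallest values these designs allow. Adjusted by Benjamini-Hochberg over 30 such comparisons they were 0.435. Per gene, the index was lower than control in 1193 of the 1588 genes in KO1 (75.1%), in 1394 in KO2 (87.8%) and in 1348 in their average (84.9%). Over all 17349 genes these shares were 71.8%, 80.1% and 78.5%. The median change per gene was −0.36 in KO1 and −0.64 in KO2, against −0.31 and −0.50 over all 17349 genes and −0.37 and −0.57 over the other 11386 protein-coding genes. With each library centred on its median over all genes, the medians of the long genes differed from control by −0.00821 in KO1 and −0.0968 in KO2. With all transcripts of a gene averaged, the differences were −0.19 and −0.39.

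The median index of very long genes exceeded that of genes of 30 to 100 kb by 0.999 to 1.09 in the 6 libraries. The difference was 1.05 and 1.03 for control, 1.06 and 1.09 for KO1, and 1.08 and 0.999 for KO2. The changes of this difference were 0.04 in KO1 and 0.00 in KO2 (exact permutation p = 0.333 and p = 1), and 0.02 for both knockouts (p = 0.533). The sign turned to −0.00822 and −0.00748 when the 747 long genes with another gene starting inside them on the same strand were left out, and the KO2 value was −0.0389 without the first KO2 library and −0.00466 without the second control library. The slope of the index on span over protein-coding genes was 2.77 and 2.78 in control, 2.74 and 2.75 in KO1 and 2.70 and 2.70 in KO2. Its changes of −0.03 and −0.07 (exact permutation p = 0.333 each) became 0.02 and 0.02 with all transcripts of a gene averaged, and −0.077 and −0.16 with a pseudocount of 1. Within the very long genes the slope was 1.05 and 1.04 in control, 1.18 and 1.18 in KO1 and 1.06 and 1.09 in KO2, so both KO1 libraries lay above the others (exact permutation p = 0.333 for each knockout against control, the smallest possible).

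By span class, the median change per gene in KO1 was −0.39 at 100 to 200 kb, −0.30 at 200 to 500 kb and −0.38 above 500 kb. In KO2 it was −0.65, −0.61 and −0.69, and at 30 to 100 kb it was −0.39 in KO1 and −0.63 in KO2. Over all 6 classes the medians ran from −0.39 to −0.30 in KO1 and from −0.69 (above 500 kb) to −0.54 (up to 10 kb) in KO2. The quartiles over genes were wider apart, from −0.63 to 0.06 in KO1 at 200 to 500 kb and from −1.14 to −0.25 in KO2 above 500 kb. Very long genes were also set beside genes of 10 to 100 kb of the same mean index, in 6 bands from 3 to 9. Their median KO2 change was the lower in 5 of the 6 bands. At 4 to 5 it was −0.78 in 170 very long genes and −0.58 in 1848 shorter ones, at 8 to 9 it was −0.519 and −0.517, and at 7 to 8 the order was the opposite (−0.49 in 373 and −0.53 in 527). In KO1 the order differed between bands. The very long genes were the lower at 4 to 5 (−0.393 and −0.382) and at 5 to 6 (−0.41 and −0.36). At 3 to 4, 6 to 7, 7 to 8 and 8 to 9 the shorter genes were the lower, with −0.33 and −0.39 at 8 to 9. These values per band are descriptions, without a test.

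**Figure D2:**
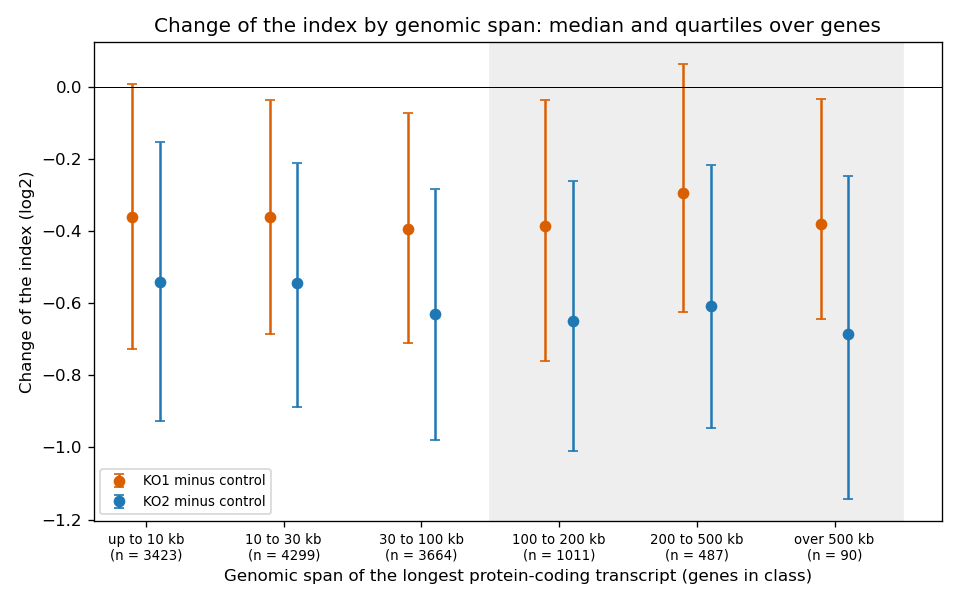
Change of the escaping index against control (log2, y axis) in KO1 and KO2 by class of genomic span (x axis). Points are medians over genes and bars run from the lower to the upper quartile, with the very long genes on the grey ground. Every median is below 0, and in each class the KO2 median is below the KO1 median.

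Individual long genes were tested with limma across all 17349 genes, with Benjamini-Hochberg adjustment and a call at an adjusted p under 0.05. In KO2 against control, 383 of the 1588 very long genes (24.1%) fell, against 17.5% of all genes tested, and 1 rose (background 0.421%). In the average of both knockouts 323 fell (20.3%, background 15.1%) and 5 rose (background 0.496%). Coding genes of 30 to 100 kb fell at a somewhat higher rate than the very long ones, 26.6% in KO2 and 22.8% in the average, while over all other coding genes 20.8% fell in KO2. These differences in rate were not tested. The same 291 of the 1588 genes fell in both of these comparisons, which share the control and KO2 libraries. Both falls were called in 1728 of the 11386 other coding genes and in 2192 of all 17349 genes. In KO1 against control no long gene was called (background 0% in both directions), the smallest adjusted p being 0.0602, while 446 were lower and 36 higher at an unadjusted p under 0.05 (background 23.9% and 3.24%). The 446 and 36 are 28.1% and 2.27% of the long genes, against 28.2% and 2.15% of the other coding genes. Adjusted over protein-coding genes alone, the KO1 count was 92 lower and 3 higher. The share over all coding genes under that adjustment is not given, so this count has no background beside it. Libraries that did not overlap are another view of the same values: both KO1 libraries lay below both controls in 830 long genes (background 46.9%), both KO2 libraries in 1100 (background 59.1%), and all 4 knockout libraries in 707 (background 38.5%). These are 52.3%, 69.3% and 44.5% of the long genes, close to the 53.4%, 66.7% and 45.4% of the other coding genes. In the other direction, 144 long genes had both KO1 libraries above both controls (background 11.1%), 70 had both KO2 libraries above (background 7.18%) and 33 had all 4 above (background 3.28%). As shares these are 9.07%, 4.41% and 2.08% of the long genes, against 8.48%, 5.08% and 2.13% of the other coding genes. The calls rest on few degrees of freedom. Leaving out any single library, of the 6, left no long gene called in KO2 or in the average (0 in each case). The same held after centring the libraries on their medians, and after quantile normalization.

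Called genes were named here only if every knockout library of the comparison lay below both controls. Among those, the falls with the smallest p-values were in genes for a centrosomal protein, a Golgi enzyme, signalling proteins and channel subunits. Cntln encodes centlein, a protein of the centrosome (chr4:84884309-85131921, 248 kb). Its index was 5.41 and 5.46 for control, 4.07 and 3.99 for KO1, and 3.12 and 3.10 for KO2, a change of −1.87 ± 0.14 (SE) in the average of both knockouts (limma adjusted p = 0.0291). The KO2 libraries were the lowest. Asap2, a GTPase-activating protein for Arf (chr12:21111748-21270171, 158 kb), had 6.58 and 6.44 for control, 4.84 and 4.59 for KO1, and 4.70 and 4.54 for KO2, an average change of −1.84 ± 0.16 with KO1 and KO2 close to each other. Man2a1, a Golgi mannosidase that trims N-linked glycans, had 6.93 and 6.91 for control, 5.49 and 5.51 for KO1, and 4.93 and 4.89 for KO2, with close replicates. Map3k20, a kinase that responds to stalled ribosomes and other stress, had 7.56 and 7.35 for control, 5.95 and 5.73 for KO1, and 5.67 and 5.62 for KO2. In Man2a1 KO2 was the lower knockout, and in Map3k20 the knockouts were closer together. Gria4, an AMPA glutamate receptor subunit (chr9:4417899-4796234, 378 kb), had 5.22 and 5.49 for control, 3.92 and 3.88 for KO1, and 3.45 and 3.34 for KO2. Cacna2d1, an accessory subunit of voltage-gated calcium channels, had 5.70 and 5.70 for control, 4.29 and 4.05 for KO1, and 4.00 and 3.99 for KO2. Bmp6, a ligand of the BMP pathway, had 5.94 and 6.21 for control, 4.43 and 4.64 for KO1, and 4.25 and 4.26 for KO2, and the membrane protein gene Tmem132b had 5.81 and 5.62 for control, 3.64 and 3.83 for KO1, and 4.24 and 4.40 for KO2, the one gene of these 8 in which KO1 was lower than KO2. The average changes of Man2a1, Map3k20, Gria4, Cacna2d1, Bmp6 and Tmem132b ran from −1.62 to −1.71, each called (limma adjusted p = 0.0291). Fam19a4, Oxr1 and Sergef were also among the 8 smallest p-values in KO2, with changes of −2.27, −1.88 and −1.65. In KO1, where none was called, the smallest p-values of long genes belonged to Tmem132b (−1.98), Asap2 (−1.79), Cpe (−1.72), which encodes the prohormone-processing carboxypeptidase E, Man2a1 (−1.41) and Cacna2d1 (−1.53).

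Of the very long genes, 5 rose against the trend of the group in the average of both knockouts. Invs encodes inversin, a ciliary protein needed for left-right patterning (chr4:48279802-48431954, 152 kb). Its index was 3.68 and 3.85 for control, 4.21 and 4.36 for KO1, and 5.86 and 5.83 for KO2, and its KO2 change of 2.08 ± 0.17 (limma adjusted p = 0.0281) was the only rise called in KO2. The KO1 libraries lay between control and KO2, with a change of 0.52 that was not called (limma adjusted p = 0.133). Klhl13, an adaptor of a cullin ubiquitin ligase (chrX:23219271-23365082, 146 kb), had 7.54 and 7.48 for control, 9.27 and 9.52 for KO1, and 8.31 and 8.06 for KO2, so here KO1 was the higher knockout. Its average change of 1.28 (limma adjusted p = 0.0291) turned to −0.21 when the longest spliced transcript was taken instead. Hs3st1, a heparan sulfate sulfotransferase, had 3.10 and 3.56 for control, 4.47 and 4.81 for KO1, and 4.18 and 4.09 for KO2, and its average change of 1.05 (limma adjusted p = 0.0342) turned to −0.36 when all its transcripts were averaged. Gucy1a2, a subunit of the nitric oxide receptor guanylate cyclase, had 7.33 and 7.32 for control, 8.18 and 8.43 for KO1, and 8.29 and 8.00 for KO2. Pknox2, a TALE homeodomain transcription factor, had 3.79 and 4.32 for control, 5.29 and 5.60 for KO1, and 5.29 and 4.73 for KO2. Their average changes were 0.90 and 1.17 (limma adjusted p = 0.0358 and 0.0395), and in both genes all 4 knockout libraries lay above both controls.

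Departure from the group was tested directly after each library was centred on its median over the very long genes. No long gene passed in KO1, KO2 or their average (limma, smallest adjusted p = 0.122, 0.111 and 0.105). At an unadjusted p under 0.05, 203 lay below the group and 183 above it in the average, against 9.18% and 13.7% of all genes (12.8% and 11.5% of the long ones). The numbers below and above were 176 and 148 in KO1 (background 8.89% and 10.1%) and 195 and 176 in KO2 (background 8.07% and 14.4%). With a pseudocount of 1, 46 were called in KO2 and 44 in the average, without a share over all genes to set beside them. The 8 smallest p-values below the group were the 8 genes with large falls described above, from Cntln to Tmem132b. Above the group they were the 5 risen genes and 3 others that were not called before centring. Tenm3, a teneurin that guides neuronal wiring (chr8:48227682-48674690, 447 kb), had 7.54 and 7.56 for control, 8.10 and 8.08 for KO1, and 8.21 and 8.28 for KO2. Parva, the actin-binding focal adhesion protein alpha-parvin, had 3.19 and 3.30 for control, 3.96 and 3.71 for KO1, and 3.76 and 3.68 for KO2. Tln2, the integrin activator talin 2, had 5.01 and 5.24 for control, 5.79 and 5.49 for KO1, and 5.55 and 5.55 for KO2.

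**Figure D3:**
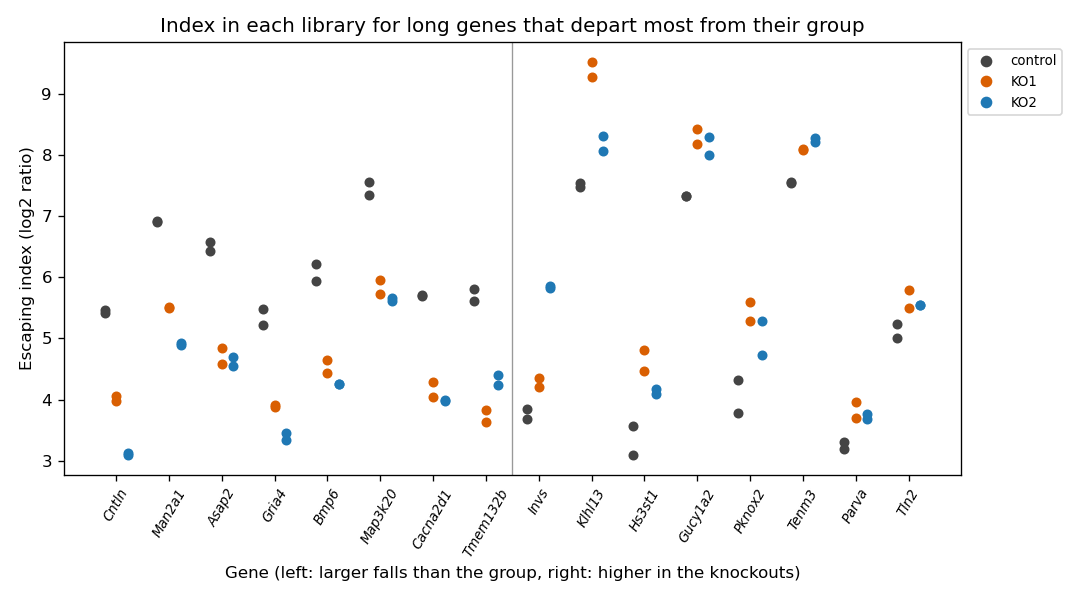
Escaping index (log2 ratio, y axis) in each of the 6 libraries for the 16 very long genes (x axis) with the smallest p-values for departure from the group, 8 below it (left) and 8 above it (right). Each point is 1 library. In every gene the 4 knockout libraries lie on 1 side of both control libraries.

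The very longest genes did not share 1 direction. The longest model, Gm20388, spans 4435 kb (chr8:119910841-124345722) and holds 71 other coding genes. Whether signal of those genes enters its index was not tested. It had 11.93 and 11.94 for control, 11.08 and 11.29 for KO1, and 12.02 and 12.05 for KO2. The measured transcript of Fgfr2, a fibroblast growth factor receptor, spans 2961 kb (chr7:130162451-133123350) and holds 29 coding genes. It had 9.06 and 9.09 for control, 9.04 and 9.04 for KO1, and 9.27 and 9.29 for KO2, while a shorter Fgfr2 transcript of 104 kb had 4.12 and 4.85 in control, 3.79 and 4.28 in KO1 and 3.72 and 3.46 in KO2. Macrod2, an ADP-ribosylhydrolase gene of 1998 kb, had 9.29 and 8.83 for control, 8.94 and 8.22 for KO1, and 7.73 and 7.85 for KO2 and fell in KO2 (−1.27, limma adjusted p = 0.0479). It holds 1 other coding gene, and both KO2 libraries lay below all others. No other of the 10 longest was called in any comparison: Ctnna3, Gm37240, Il1rapl2, Prkg1, Nkain2, Kcnip4 and Ccser1 had average changes from −0.76 (Nkain2) to 0.28 (Ccser1). Kcnip4, a modulator of potassium channels, shows how wide replicates could be, with 6.33 and 4.69 for control, 4.78 and 5.93 for KO1, and 5.59 and 5.22 for KO2. In all, 114 very long genes hold at least 1 whole other coding gene. With these genes left out of the count, 356 of the 384 calls in KO2 and 306 of the 328 in the average remained. The fit over all genes was the same, so this shortens the count and does not test the calls.

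At the threshold itself, the genes just inside were Map2k4 (100.055 kb), Wipf1, Abi1, Snx13 and Specc1l, with average changes of −0.998, −0.43, −0.36, −0.92 and −0.05. Those just outside were Prep (99.996 kb), Tut4, Vmp1, Arsg and Pcdhgb6, with −0.40, −1.31, −0.29, −1.33 and −0.18. The highest control indices among very long genes belonged to Cmss1 (12.64 and 12.93 for control, 13.09 and 12.68 for KO1, and 12.93 and 13.63 for KO2), then Camk1d, Gm20388, Immp2l and Trpm3. The lowest belonged to Anks1b (0.07 and −0.85 for control, −0.33 and 0.50 for KO1, and −0.10 and −0.25 for KO2), then Fam227b, Filip1, Cdh7 and Sorbs2. The low end showed no common direction, with average changes from −0.73 in Fam227b to 0.67 in Filip1. Of the very long genes, 12 lie in the clustered protocadherin loci, whose transcripts share their constant exons, and their values are uncertain for that reason.

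The index was more often lower in KO2 than in KO1. The KO1 index was above the KO2 index in 1162 of the 1588 genes (73.2%, against 66.8% of the other protein-coding genes), with a median difference of 0.27. None was called in limma (smallest adjusted p = 0.167, background 0%), while at an unadjusted p under 0.05 KO1 was higher in 274 and lower in 37 (background 14.6% and 3.38%). The 274 and 37 are 17.3% and 2.33% of the long genes, against 15.5% and 3.28% of the other coding genes. In 44 long genes both KO1 libraries lay above both controls and both KO2 libraries below (2.77%, background 2.74%), and in 11 the reverse (0.693%, background 0.824%), shares near those over all genes. Fam19a4, which encodes a secreted chemokine-like protein, had 7.70 and 7.26 for control, 7.09 and 6.95 for KO1, and 5.31 and 5.13 for KO2. Pde5a, the phosphodiesterase that degrades cGMP, had 5.10 and 5.24 for control, 4.77 and 4.97 for KO1, and 3.45 and 3.55 for KO2. Camkmt, a calmodulin methyltransferase, had 8.39 and 8.14 for control, 8.24 and 8.27 for KO1, and 6.78 and 6.86 for KO2. All 3 fell in KO2 (limma adjusted p = 0.0281 for each) with KO1 libraries closer to control. The opposite order was seen in Fntb, the beta subunit of farnesyltransferase, with 6.80 and 7.07 for control, 5.80 and 5.72 for KO1, and 6.71 and 6.92 for KO2. Parm1 had 6.31 and 5.99 for control, 5.44 and 5.45 for KO1, and 6.27 and 6.27 for KO2, and Nebl, a nebulin-like protein of the actin cytoskeleton, had 7.21 and 6.74 for control, 5.90 and 6.06 for KO1, and 7.34 and 6.89 for KO2. In these 3 both KO1 libraries lay below both controls. The difference between KO1 and KO2 was not called in any of these 6 genes (limma).

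Gene lists by function describe the values of very long genes of several kinds. No list was tested against the others or against the background, and the lists were chosen with earlier results of these data known. Background for all of them is the 17.5% of genes that fell in KO2 and 15.1% in the average. Of the very long genes, 24.1% fell in KO2 and 20.3% in the average. The median average change was −0.49 over very long genes and −0.40 over all genes. A lower average value was found in 84.9% of very long genes and 78.5% of all genes. None of the 5 genes that rose is in a list, and no member was called in KO1.

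Ion channels and glutamate receptors had the lowest median of the lists with 10 or more long members. Of 16 long members, 7 fell in KO2 and 7 in the average, 9 were not called there, and all 16 had a lower average value (median −0.69). Beside Gria4 and Cacna2d1, Ryr2, the calcium release channel, had 7.85 and 8.22 for control, 6.32 and 6.70 for KO1, and 6.93 and 7.11 for KO2, with KO1 the lower knockout. Kcnd2, a potassium channel subunit, had 8.21 and 8.18 for control, 7.17 and 7.25 for KO1, and 7.20 and 7.35 for KO2, where the libraries of the 2 knockouts overlapped. Their average changes were −1.27 and −0.95 (limma adjusted p = 0.0291 and 0.0292).

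Synaptic and neural adhesion genes had values on both sides of 0. Of 13 long members, 2 fell in KO2 and 0 in the average (limma, 4 at an unadjusted p under 0.05), 7 had a lower and 6 a higher average value, and the median was −0.17, with 0.06 in KO1. The 2 that fell were Nrxn3, a neurexin, with 1.58 and 1.52 for control, 1.04 and 1.46 for KO1, and 0.36 and 0.11 for KO2, and Tenm4, a teneurin, with 7.76 and 7.74 for control, 7.45 and 7.26 for KO1, and 6.81 and 7.05 for KO2. Its relative Tenm3 was higher in all 4 knockout libraries, as was Ncam1, a neural cell adhesion molecule, with 7.52 and 7.50 for control, 7.91 and 7.89 for KO1, and 7.77 and 7.93 for KO2. Dscam had 6.36 and 5.36 for control, 4.71 and 4.37 for KO1, and 4.60 and 4.82 for KO2, an average change of −1.23 that was not called (limma adjusted p = 0.0518). Cadherins, catenins and polarity genes had 12 long members, of which 1 fell in KO2 and 2 in the average (median −0.55). Those 2 were Ctnnd2, a delta-catenin, with 7.93 and 8.19 for control, 6.75 and 6.35 for KO1, and 6.87 and 5.84 for KO2, and Cdh4, R-cadherin, with 7.39 and 6.76 for control, 5.87 and 6.05 for KO1, and 5.74 and 6.23 for KO2.

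Of 29 long ubiquitin ligases and deubiquitinases, as the list names them, 8 fell in KO2 and 8 in the average, and 28 had a lower average value (median −0.62). Usp6nl, which despite its name is a GTPase-activating protein for Rab proteins, had 5.87 and 5.84 for control, 4.52 and 4.55 for KO1, and 4.33 and 4.17 for KO2. Herc2, a giant E3 ligase, had 6.31 and 6.33 for control, 5.82 and 5.48 for KO1, and 5.14 and 5.18 for KO2. Smurf2, an E3 ligase of the TGF-beta pathway, had 6.14 and 5.87 for control, 5.14 and 5.15 for KO1, and 4.95 and 5.23 for KO2. Of 48 long small GTPase regulators and cytoskeletal genes, 15 fell in KO2 and 13 in the average (median −0.54). Rasa3, a Ras GTPase-activating protein, had 4.40 and 4.44 for control, 3.33 and 3.35 for KO1, and 2.85 and 3.00 for KO2. Myo10, the filopodial myosin, had 9.39 and 9.54 for control, 8.33 and 8.59 for KO1, and 7.80 and 7.96 for KO2. Trio, a guanine nucleotide exchange factor of small GTPases, had 8.08 and 8.45 for control, 6.75 and 6.92 for KO1, and 7.26 and 7.21 for KO2, and here KO1 was the lower knockout. The cytoskeletal linker Macf1 went the other way with 9.50 and 9.67 for control, 10.81 and 11.31 for KO1, and 9.82 and 9.83 for KO2, an average change of 0.85 that was not called (limma adjusted p = 0.0685).

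Among 32 long chromatin regulators and transcription cofactors, 7 fell in KO2 and 7 in the average (median −0.50). Hdac9, a histone deacetylase, had 4.18 and 4.20 for control, 2.22 and 2.53 for KO1, and 1.41 and 2.21 for KO2, an average change of −2.09. Ncor1, a corepressor that recruits deacetylases, had 7.06 and 7.74 for control, 5.94 and 6.04 for KO1, and 5.81 and 5.86 for KO2. Ehmt1, a histone H3K9 methyltransferase, had 8.61 and 8.26 for control, 7.37 and 7.50 for KO1, and 6.96 and 7.05 for KO2, and Chd2, a chromatin remodeller, had 5.74 and 5.72 for control, 4.96 and 4.92 for KO1, and 4.68 and 4.62 for KO2. In all 4 genes both knockouts lay below both controls. Of 37 long transcription factors, 7 fell in KO2 and 4 in the average (median −0.30), among them Nr3c2, the mineralocorticoid receptor, with 6.27 and 6.09 for control, 5.44 and 5.13 for KO1, and 5.07 and 4.50 for KO2. Zfp521 had 8.21 and 8.32 for control, 7.42 and 7.32 for KO1, and 7.41 and 7.55 for KO2.

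Of 41 long kinases, phosphodiesterases and phospholipases, 11 fell in KO2 and 10 in the average (median −0.31). Map2k4, the kinase upstream of JNK, had 7.15 and 7.19 for control, 6.21 and 6.19 for KO1, and 6.12 and 6.17 for KO2, with knockout values close together. Met, the receptor of hepatocyte growth factor, had 6.03 and 5.15 for control, 3.90 and 4.27 for KO1, and 3.44 and 3.76 for KO2, and Epha7, an ephrin receptor, had 2.73 and 2.91 for control, 1.82 and 2.01 for KO1, and 1.48 and 1.46 for KO2. Of 22 long genes for RNA-binding proteins and splicing, 5 fell in KO2 and 3 in the average (median −0.29). Khdrbs3 and Khdrbs2, paralogous regulators of splicing, both fell in the average, by 1.38 and 2.14. Khdrbs2 had 7.30 and 6.46 for control, 4.81 and 5.90 for KO1, and 3.93 and 4.30 for KO2, with wide replicates, and Khdrbs3 had 6.47 and 6.18 for control, 5.23 and 4.93 for KO1, and 4.83 and 4.78 for KO2. Elavl4, a neuronal RNA-binding protein, also fell in the average by 1.04, a sign that turned to 0.054 with its longest spliced transcript. Of 20 long genes for DNA replication, repair and cell division, 3 fell in KO2 and 1, the DNA polymerase gene Poln, in the average (median −0.34), and Poln had 5.41 and 5.68 for control, 4.45 and 4.52 for KO1, and 4.65 and 4.77 for KO2.

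Genes at common fragile sites, regions that break under replication stress and often hold very long genes, had 19 members, all of them very long. Of these, 5 fell in KO2 and 2 in the average (median −0.38). Immp2l, a mitochondrial inner membrane peptidase subunit, had 11.24 and 12.46 for control, 10.45 and 10.18 for KO1, and 9.55 and 9.71 for KO2. Gpc6, a glypican, had 9.24 and 9.29 for control, 8.69 and 8.95 for KO1, and 8.07 and 8.17 for KO2, and in both the KO2 libraries were the lowest. Of the 47 measured factors for transcription elongation, 9 fell in KO2 and 5 in the average. Just 2 of them are very long: Cdc73, a subunit of the PAF1 complex, with 5.84 and 5.85 for control, 5.57 and 5.52 for KO1, and 5.07 and 4.93 for KO2, and Aff1, a scaffold of the super elongation complex, with 5.90 and 5.87 for control, 5.49 and 6.22 for KO1, and 5.67 and 5.66 for KO2. Cdc73 fell in KO2 by 0.84 (limma adjusted p = 0.032) and Aff1 was not called. Of 20 measured m6A writers, readers and erasers, 2 fell in KO2 and 1 in the average, neither of them very long. The 3 very long ones were not called. Igf2bp3, an m6A reader, had 7.96 and 8.62 for control, 7.26 and 7.87 for KO1, and 7.40 and 7.80 for KO2. Its paralog Igf2bp2 had 7.85 and 9.37 for control, 8.21 and 8.52 for KO1, and 8.58 and 8.73 for KO2. Fto, an RNA demethylase, had 7.25 and 7.32 for control, 7.57 and 7.92 for KO1, and 7.46 and 7.44 for KO2, with every knockout library above both controls.

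**Figure D4:**
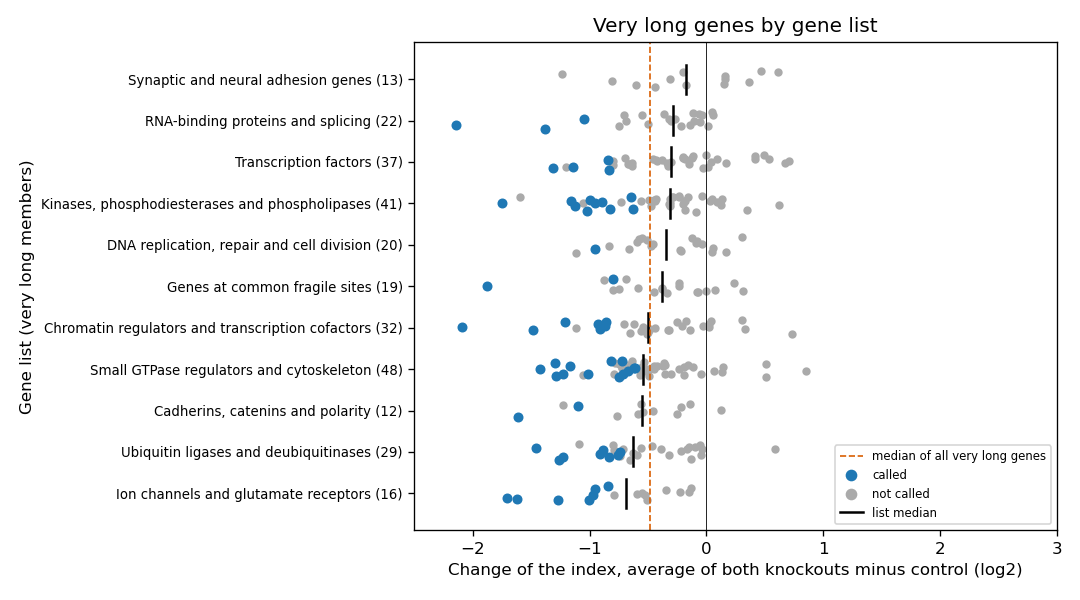
Change of the escaping index against control, averaged over both knockouts (log2, x axis) for the very long members of the 11 gene lists with at least 10 of them (y axis, number of long members in brackets). Each point is 1 gene, blue where called by limma; black bars are list medians and the dashed line is the median over all very long genes. List medians run from −0.69 for ion channels and glutamate receptors to −0.17 for synaptic and neural adhesion genes.

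Shorter transcripts that start at the same base as a long one made it possible to compare the change of the ratio between parts of the gene. In the table, 1566 of 1568 such shorter transcripts had a ratio no higher than that of the long transcript in every library (tolerance 1e-09), and 804 of 807 sets of transcripts with the same start and end but different exons had the same values to every deposited digit in all 6 libraries, while the other 3 sets differed. For 141 very long genes, the ratio of the shorter transcript was taken as the near part and the remainder as the far part. The shorter transcripts ended at a median of 55.8% of the span (93.2 kb). Where both transcripts share the signal at the start, the far part relative to the near part does not depend on it. These pairs were chosen after the values had been seen.

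Relative to the signal at the start, the near and far parts of very long genes were both lower in the knockouts. Lower signal in both parts and higher signal at the start cannot be told apart here. In KO1 the median change per gene was −0.34 for the near part and −0.29 for the far part, and in KO2 it was −0.60 and −0.66. The medians per library differed from control by −0.22 and −0.35 in KO1 and by −0.60 and −0.71 in KO2. In KO1 the order of the 2 parts thus depended on the summary. In KO2 the near part was lower than control in 129 of the 141 genes and the far part in 130, and in KO1 in 105 and 102. Over 573 shorter coding genes with such a pair, the near part was lower in 505 and the far part in 492 in KO2, and in 478 and 438 in KO1. In KO2 these shares are 88.1% and 85.9%, against 91.5% and 92.2% of the long genes, and in KO1 83.4% and 76.4%, against 74.5% and 72.3%. The median far share of the signal was 44.5% and 45.5% for control, 47.0% and 47.2% for KO1, and 44.7% and 44.2% for KO2. The KO1 libraries were both above control (by 2.05 percentage points, exact permutation p = 0.333, the smallest possible), and the KO2 libraries overlapped control (−0.583 points, p = 0.667). In a limma fit over the 714 genes with such a pair, the far part gained on the near part in 11 of the 141 long genes in KO1 (background 8.4%) and lost in 6 (background 3.92%). In KO2 it gained in 5 (background 6.44%) and lost in 7 (background 3.64%), and in the average it gained in 6 (background 7.98%) and lost in 7 (background 4.62%). Between the knockouts, the far part was higher against the near part in KO1 than in KO2 in 13 (background 7.14%) and lower in 4 (background 3.78%). Without any 1 library, 0 were called in KO2, in the average and between the knockouts. In KO1, 6 were called without the first or the second KO2 library, and 0 without any of the other 4.

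The far share fell in the average of both knockouts in Nrp2, a neuropilin coreceptor of semaphorins and VEGF. It was 85.6% and 88.4% for control, 80.7% and 80.3% for KO1, and 81.4% and 79.4% for KO2, a change of −0.71 in log2 of far over near (limma adjusted p = 0.0372). Nmnat3, which makes NAD in mitochondria, had a far share of 19.5% and 18.9% for control, 12.6% and 13.4% for KO1, and 13.7% and 13.2% for KO2 (change −0.65, limma adjusted p = 0.0207). In both genes all 4 knockout libraries lay below both controls. Kazn, a protein of cell junctions, had 23.7% and 23.8% for control, 15.5% and 15.7% for KO1, and 21.4% and 20.8% for KO2, so the fall was larger in KO1. Nsd3, a histone H3K36 methyltransferase, had 52.5% and 52.1% for control, 48.4% and 47.6% for KO1, and 47.3% and 46.5% for KO2. Sfxn5, Nceh1 and A830018L16Rik were the other 3 with a lower far share in the average, with changes of −0.39, −0.38 and −0.29.

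The far share rose in the average in Myo1d, an unconventional myosin, with 51.5% and 50.3% for control, 58.9% and 58.2% for KO1, and 56.3% and 55.6% for KO2 (change 0.37, limma adjusted p = 0.0218). Hip1, an endocytic adaptor of clathrin, had 48.2% and 46.6% for control, 55.8% and 55.0% for KO1, and 53.2% and 53.6% for KO2. Nectin3, a cell adhesion molecule, had 36.0% and 35.0% for control, 43.2% and 44.4% for KO1, and 39.2% and 41.3% for KO2, and in these 3 genes the KO1 libraries were the highest. Itsn1, Rsu1 and Zfp618 were the other 3, with changes of 0.34, 0.19 and 0.28. Rsu1, a partner of focal adhesion proteins, had 75.8% and 76.0% for control, 80.3% and 80.2% for KO1, and 76.5% and 75.8% for KO2, with both KO1 libraries above control and the KO2 libraries overlapping it.

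**Figure D5:**
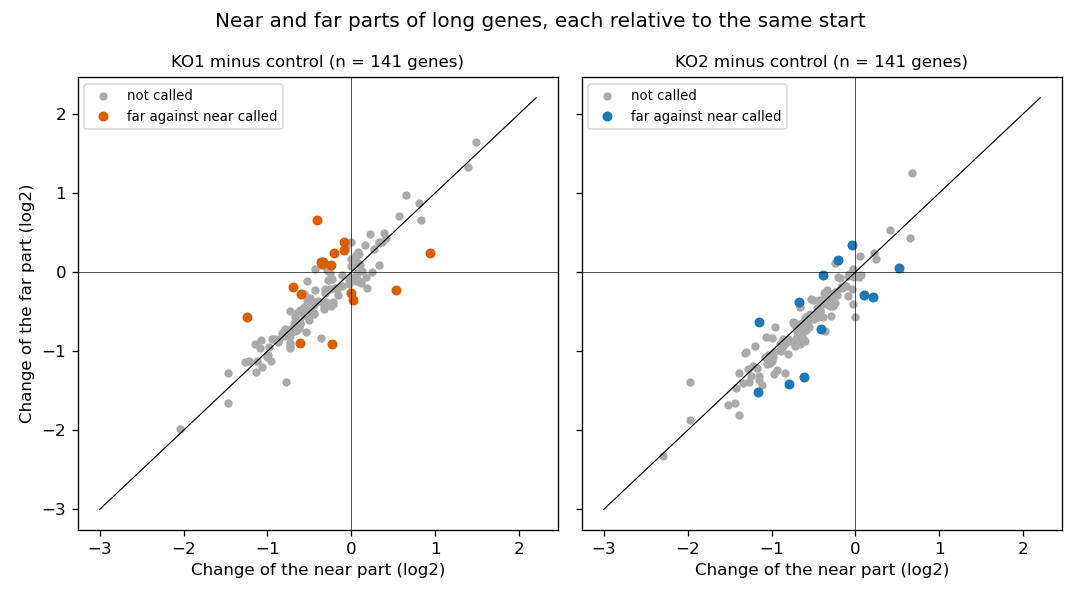
Change of the far part (y axis) against change of the near part (x axis), both log2 relative to the same start, in KO1 (left) and KO2 (right) for 141 very long genes. Each point is 1 gene, coloured where limma called the far part against the near part, and the line marks equal change. Most points lie near the line and below 0 on both axes.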

How the data were processed

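The authors deposited 1 table of log2 escaping indices for 68473 transcripts in 6 mNET-seq libraries. CASAVA, Trimmomatic 0.38, HISAT2 2.1.0, featureCounts and build mm10 are named, per the submitters' processing notes. The sources used here do not give the windows of the index, the handling of strand or the offset added before the logarithm. Taking the offset as 0.5 times the smallest deposited linear value in a library made the commonest ratio 1 in all 6 libraries, and ratios in the text are log2 values converted back with that offset removed. Read depth is unknown, and precision is given by the spread between 2 libraries.

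Transcript identifiers were matched to GENCODE M21 (68397 matched and 76 did not). Each gene was represented by its protein-coding transcript of longest genomic span or, where it had none, by its longest transcript, which gave 17349 genes. The deposited log2 values were tested without rescaling in limma 3.58.1 (R 4.3.3; group means, eBayes with trend, all 6 libraries, Benjamini-Hochberg over all genes, called under 0.05), after the script had been tested on simulated data. Single values per library were compared by exact permutation (scipy 1.17.1). Named genes were the 10 longest, 5 on each side of the threshold, the 5 highest and 5 lowest in control, up to 8 called genes per direction and comparison, up to 8 per direction by departure from the group, 5 per direction between the knockouts, and the list members with the smallest p-values. The called genes were taken only where the knockout libraries compared all lay on 1 side of both controls. No very long gene had a ratio of exactly 1 (tolerance 1e-09), so none was left out for that. A gene that the rule would name is not reported here. The members and lists were chosen with earlier results of these data known. The alternatives tried were other transcripts per gene, pseudocounts, filters, scalings, span thresholds, the replicate block and leaving out each library. The same replicate number in different groups did not pair samples, as reported with the limits.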

Additional observations from a re-analysis of the deposited data

Results flagged for a closer look

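For some very long genes both libraries of one knockout lay above both controls and both libraries of the other lay below, in 44 with KO1 above (2.77%, against 2.74% of all genes) and in 11 with KO2 above (0.693% against 0.824%). Among the genes named by the rule these were Cnih3 and Tec, with Bcas3, Gm20388 and Fgfr2. Cnih3, an auxiliary protein of AMPA receptors, had an index of 2.35 and 2.40 for control, 1.21 and 1.17 for KO1, and 2.59 and 3.78 for KO2, so that KO1 minus KO2 was −2.00. Tec, a non-receptor tyrosine kinase, had 4.52 and 4.71 for control, 4.98 and 5.19 for KO1, and 3.60 and 3.35 for KO2, a difference of 1.61. Bcas3 had 6.98 and 7.22 for control, 7.95 and 7.95 for KO1, and 6.53 and 6.39 for KO2, a difference of 1.49. In Gm20388 and Fgfr2, the models with the longest spans, the differences were −0.85 and −0.24. None of these 5 differences between the knockouts was called in limma (adjusted p = 0.167 for Cnih3, Tec and Bcas3, 0.253 for Gm20388 and 0.567 for Fgfr2).

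The log2 ratio of the far to the near part of a long gene differed between the knockouts in 17 of 141 genes (limma, adjusted p under 0.05). Of these, 9 were also called in KO1, KO2 or the average against control. KO1 minus KO2 was 0.65 in Adam32, 0.61 in Glis3, 0.92 in Hecw2, 0.39 in Mtus1 and 0.44 in Osbpl1a. It was 0.47 in Palld, 0.35 in Rsu1, 0.52 in Tcf12 and −0.54 in Kazn, the one of these 9 in which the far part was lower in KO1. The 17 calls became 0 with the replicate block and 0 without any 1 library.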

How the results depend on the processing

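The median change of very long genes kept its sign under every alternative run, from −0.388 to −0.0012 in KO1, −0.635 to −0.0705 in KO2 and −0.506 to −0.0359 in the average. The counts of called genes depended on the settings. KO1 went from 0 to 95 when adjusted over protein-coding genes alone. KO2 went from 384 to 113 with all transcripts averaged, and the average from 328 to 87, or 167 with both knockouts as 1 group. Leaving out the 747 of 1588 long genes that hold another start gave 211 in KO2 and 182 in the average. The fit was the same and only the genes counted changed, so this drop does not test the calls. Median centring, quantile normalization, the replicate block and leaving out any library each gave 0 in both, as did fitting only the groups compared in KO2. Departures from the group went from 0 to 46 in KO2 and 44 in the average with a pseudocount of 1. Shares over all genes under these alternatives are not given, so the counts are not set against a background.

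For far against near, the replicate block took 17 calls in KO1 to 10, 12 in KO2 to 0, 13 in the average to 0 and 17 between knockouts to 0, and leaving out 1 library gave 0 to 6 in KO1 and 0 in the others. Pairs whose shorter transcript covers 25 to 75% of the span gave 21, 9, 16 and 12. Same-numbered libraries share only a number: their deviations from the group means correlated at −0.01, −0.00 and 0.02.

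The long-minus-shorter change turned to −0.00822 (KO1), −0.00748 (KO2) and −0.00785 (average) without overlapped long genes, the shorter genes being left unfiltered. In KO2 the change turned to −0.00285 with the pseudocount, −0.000461 with the longest spliced transcript and −0.00224 with quantile normalization. Leaving out 1 library gave −0.0389 to 0.0462 in KO2 and −0.00169 to 0.0409 in the average. The slope change turned to 0.0197 (KO1), 0.0195 (KO2) and 0.0196 (average) with all transcripts averaged, and to 0.0271 in KO1 with quantile normalization. By gene, the longest spliced transcript turned Elavl4 to 0.23 in KO2 and 0.0535 in the average and Klhl13 to −0.21, and averaging turned Hs3st1 to −0.361. The cause of these shifts was not tested. Of 4815 recomputed values of single genes, 3429 kept their direction and call, 1158 lost the call, 57 gained one, 167 uncalled values changed sign and 4 called ones did. The 2 libraries per group and unknown depth limit every value, and the alternatives for far against near, and leaving out long genes that hold a whole other gene, were chosen after seeing the data.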
